A study of Mus musculus with 2 samples.

Results

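The Mir23, Mir27 and Mir24 genes of the mouse lie in a pair of paralogous clusters, Mir23b, Mir27b and Mir24-1 on chromosome 13 and Mir23a, Mir27a and Mir24-2 on chromosome 8. The 6 cluster genes were taken by their gene names together with Mir3074-1, which is annotated on the strand opposite to Mir24-1. These 7 genes were all found among the 2202 miRNA genes counted. The counts come from microRNA-seq (sequencing of short RNA) of total RNA from 2 hearts of 10-day-old female B6CASTF1/J mice, the first-generation cross between strains C57BL/6J and CAST/EiJ, with no treatment named. Replicates 1 and 2 are separate biosamples with 1 library each, and the labels name 1 donor entry for both. With 1 group of 2 hearts no comparison of conditions can be made, and an exact two-sided sign-flip test over 2 hearts cannot give a p below 0.5. Levels are therefore given in each heart, and intervals cover counting error only.

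A miRNA cluster is transcribed as a long primary transcript, from which each hairpin is cut out. Dicer then releases a 5p and a 3p arm from each hairpin. The loaded arm finds its target mRNAs mainly through its seed, bases 2 to 8. The miR-23, miR-27 and miR-24 families are known from blood vessel endothelium, where miR-23 and miR-27 promote sprouting. In mouse cardiomyocytes miR-23a is known as a hypertrophy-linked miRNA downstream of Nfatc3, and miR-24 as a repressor of the pro-apoptotic gene Bim (Bcl2l11). miR-27 is known for its targeting of the adipogenic receptor gene Pparg.

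The mature sequences decide which reads can be told apart between the paralogs, so they are shown first, from RefSeq (GRCm38.p6), 5′ to 3′, with the seed in capitals. All 7 members had 1 or more entries, and their arms were 21 to 23 nt long.
miR-23a-3p: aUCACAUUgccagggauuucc
miR-27a-3p: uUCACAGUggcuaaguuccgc
miR-27b-3p: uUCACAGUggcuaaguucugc
miR-24-3p: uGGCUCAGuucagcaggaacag
miR-24-1-5p: gUGCCUACugagcugauaucagu
miR-24-2-5p: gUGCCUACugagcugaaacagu
miR-3074-5p: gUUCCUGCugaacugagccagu
The arm of Mir23b that corresponds to miR-23a-3p is miR-23b-3p.

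The 3p arms of Mir27a and Mir27b share the seed UCACAGU and differ by the substitution C19U, written from miR-27a-3p to miR-27b-3p and counted from the 5′ end. The seed of miR-23a-3p, UCACAUU, is 1 substitution away from it (U7G, from miR-23a-3p to miR-27a-3p). The miR-24-3p arm is the same in Mir24-1 and Mir24-2, and its seed is GGCUCAG. The 5p arms of the Mir24 genes share the seed UGCCUAC and their 16 leading bases, and differ at 5 of 22 positions compared without gaps. They are 23 nt (miR-24-1-5p) and 22 nt (miR-24-2-5p) long and end in the same bases, so the difference in length adds to that count. The arm miR-3074-5p lies antisense to most of miR-24-3p and is likewise the same in Mir3074-1 and in Mir3074-2, its counterpart on the strand opposite to Mir24-2.

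The clusters are compact and read in the same order, Mir23, Mir27, Mir24, on the plus strand (mm10, GENCODE M21). On chromosome 13 Mir23b lies at chr13:63300484-63300557, Mir27b at chr13:63300712-63300784 and Mir24-1 at chr13:63301208-63301275, within 792 bp. All 3 lie inside the protein-coding gene 2010111I01Rik on its own strand, and inside Fancc, a Fanconi anaemia gene, on the opposite strand. Mir23b overlaps no annotated exon, Mir27b lies in exon 6 of a 2010111I01Rik transcript annotated for nonsense-mediated decay, and Mir24-1 lies in exon 2 of another such transcript. Mir3074-1 occupies chr13:63301199-63301283 on the minus strand. On chromosome 8 Mir23a lies at chr8:84208518-84208592, Mir27a at chr8:84208672-84208758 and Mir24-2 at chr8:84208815-84208921, within 404 bp. Mir23a and Mir27a overlap no other annotated gene, and the last bases of Mir24-2 overlap the lincRNA Gm26532. The gap between Mir27 and Mir24 is 423 bp on chromosome 13 and 56 bp on chromosome 8.

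**Figure D1:**
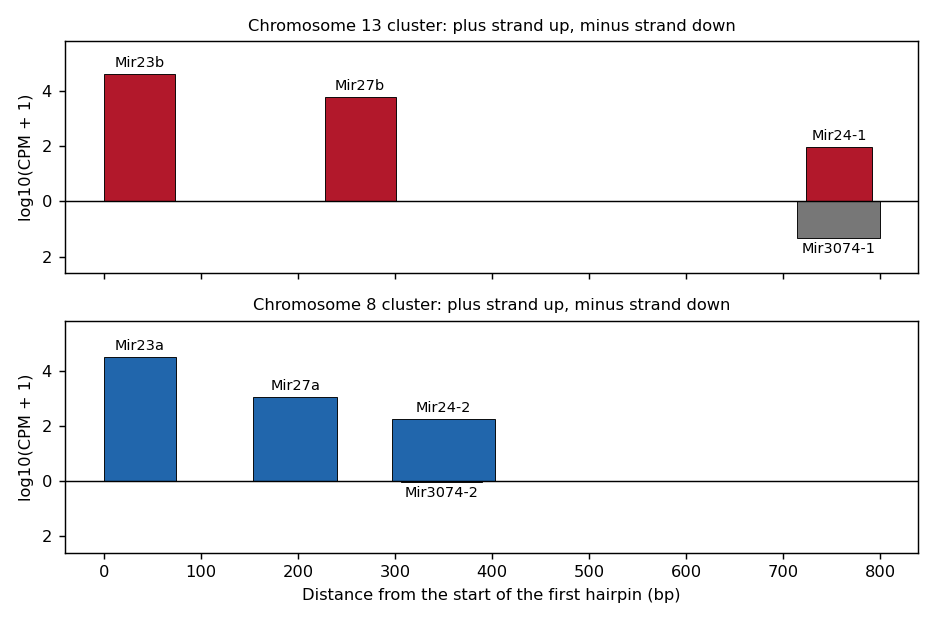
The 2 clusters drawn to scale, as distance in bp from the start of Mir23b (top) or Mir23a (bottom), with the height of each hairpin its mean level as log10(CPM + 1) over 2 hearts, plus strand up and minus strand down. The Mir23 hairpin is the tallest of its cluster on both chromosomes, and of the minus-strand genes Mir3074-1 is visible while Mir3074-2 is close to 0.

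Reads placed at more than 1 position are kept in a category of their own and count for no gene, so shared sequence sets what each gene can collect. Among the hairpins of all 2202 miRNA genes, every 22 nt window of Mir23b, Mir23a, Mir27b and Mir27a belonged to that hairpin alone. The longest run shared within the Mir23 pair and within the Mir27 pair was 20 nt, which covers 18 of the 21 bases of miR-23a-3p, miR-27a-3p and miR-27b-3p. Mir24-1 and Mir24-2 share a run of 28 nt that holds all of miR-24-3p, while neither 5p arm reaches into it. Mir3074-1 and Mir3074-2 share 30 nt that hold all of miR-3074-5p. A read lying wholly inside these runs has more than 1 possible place, so the counts of the Mir24 genes and of Mir3074-1 leave out full-length reads of those arms, and their levels are uncertain. No genome sequence was searched, and copies outside annotated transcripts are not covered.

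Counts on named genes totalled 4260561 in replicate 1 and 4583025 in replicate 2, and reads placed at more than 1 position 4193785 and 3872896. CPM values scale each library to a common total of counts on named genes. Where a gene had no counts, the limit of 3 counts corresponds to 0.704 CPM in replicate 1 and 0.655 CPM in replicate 2. As a check of the tissue label, 6 of 7 cardiac muscle genes reached 10 counts in each library, and the 7 took 0.970% and 0.660% of the counts. Mir499 stood at 5442 and 4126 CPM, Mir208a at 2957 and 1367 CPM and Mir208b at 1245 and 1043 CPM. The others were low, with Mir1a-2 at 43.4 and 53.5 CPM, Mir133a-1 at 7.75 and 2.62 CPM, Mir1a-1 at 2.58 and 2.62 CPM and Mir133a-2 at 1.41 and 0.873 CPM. The Mir1a genes share a mature sequence, as do the Mir133a genes, so these levels and the share of the cardiac muscle list are uncertain. Genes known from other cells of the heart were counted too. Endothelial genes (3 of 3 reaching 10 counts in each library) took 8.76% and 13.8%, smooth muscle genes (2 of 2) 5.37% and 3.60%, and fibroblast genes (4 of 5) 1.82% and 0.948%. White blood cell genes took 0.361% and 0.372%, erythroid genes 0.0550% and 0.105%, the liver gene Mir122 0.00763% and 0.0141%, and skeletal muscle genes 0.00216% and 0.00194%. Of 6 neuronal genes found, 5 were at 0 in both hearts. Arms shared among the genes of these other lists were not examined, and reads placed at more than 1 position are left out. A low share or a 0 is thus no measure of the mature miRNA level, and the shares of different lists cannot be compared. The 10 count minimum was met by all 7 members and by 346 of all 2202 genes.

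The 7 members took 6.82% of the counts in replicate 1 (exact 95% Clopper-Pearson interval 6.79 to 6.84) and 8.84% in replicate 2 (8.81 to 8.86). The chromosome 13 cluster held the larger part, 4.70% ± 0.829 of the counts, against 3.13% ± 0.599 for the chromosome 8 cluster (mean ± SD, n = 2). By family, the Mir23 genes took 7.09% ± 1.39, the Mir27 genes 0.710% ± 0.0345 and the Mir24 genes 0.0263% ± 0.00154. The Mir24 share leaves out full-length reads of miR-24-3p, so how scarce that family is beside the others cannot be told from it. The cluster shares leave out those reads too. Lengths were not scaled for, since the mature arms differ by no more than 2 nt.

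Mir23b was the highest member, with 150606 counts (35349 CPM) in replicate 1 and 212902 counts (46455 CPM) in replicate 2. By uniquely placed reads it ranked 8 and 5 among all miRNA genes of the 2 libraries. Genes with shared arms lose reads in such ranks, here and below. Its paralog Mir23a had 109533 counts (25709 CPM) and 157119 counts (34283 CPM), at ranks 11 and 7. Both Mir23 genes stood higher in replicate 2, and the lowest value of Mir23b lay above the highest of Mir23a by a small margin.

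Mir27b had 24254 counts (5693 CPM) in replicate 1 and 28978 counts (6323 CPM) in replicate 2, at ranks 30 and 25. Mir27a had 4956 counts (1163 CPM) and 4677 counts (1021 CPM), at ranks 74 and 76. Across the hearts the coefficient of variation was 7.42% for Mir27b and 9.24% for Mir27a, against 19.2% for Mir23b and 20.2% for Mir23a.

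Of the uncertain genes, Mir24-1 had 435 counts (102 CPM) in replicate 1 and 390 counts (85.1 CPM) in replicate 2. Mir24-2 had 637 counts (149.5 CPM) and 863 counts (188 CPM), higher than Mir24-1 in both hearts. Mir3074-1 had 102 counts (23.9 CPM) and 74 counts (16.1 CPM). Their ranks in the single libraries lay between 136 and 244. Mir24-2 stood higher in replicate 2, and Mir24-1 and Mir3074-1 in replicate 1.

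In CPM the order of means was Mir23b (40902 ± 7853), Mir23a (29996 ± 6063), Mir27b (6008 ± 446), Mir27a (1092 ± 101), Mir24-2 (169 ± 27.4), Mir24-1 (93.6 ± 12.0) and Mir3074-1 (20.0 ± 5.51; SD, n = 2). The highest mean was 2041 times the lowest. At each of the 6 steps of this order the gap between the means exceeded the larger SD, and the ranges over the hearts did not overlap. The closest step was that of Mir23b and Mir23a, where the gap of 10906 CPM compares with an SD of 7853 CPM. Counts of Mir24-2, Mir24-1 and Mir3074-1 leave out full-length reads of shared arms. Their places in the order and the 2041-fold range thus describe uniquely placed reads only.

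**Figure D2:**
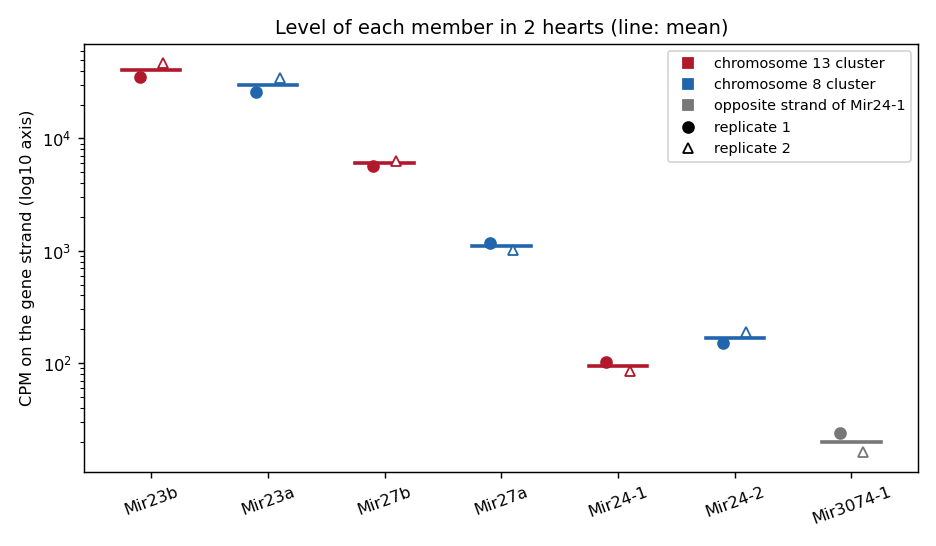
Level of each member in CPM on the gene strand (log10 axis), with a point per heart (circle, replicate 1; triangle, replicate 2) and a line at the mean of 2 hearts. The Mir23 and Mir27 genes of chromosome 13 lie above those of chromosome 8, and Mir24-1 lies below Mir24-2.

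Set against each other within a library, the paralogs did not share a common ratio. Mir23b exceeded Mir23a 1.37-fold in replicate 1 and 1.36-fold in replicate 2, with exact 95% intervals of 1.36 to 1.39 and 1.35 to 1.36. On the log2 scale that ratio was 0.46 and 0.44, and it varied with an SD of 0.015 between the hearts although the coefficients of variation of the single genes were 19.2% and 20.2%. Mir27b exceeded Mir27a 4.89-fold (4.75 to 5.05) and 6.20-fold (6.01 to 6.39), so the chromosome 13 excess was larger for Mir27 than for Mir23 in both hearts. The chromosome 13 gene made up 57.9% and 57.5% of the Mir23 counts, and 83.0% and 86.1% of the Mir27 counts.

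For the Mir24 genes the order was turned round. Mir24-1 stood at 0.683 times Mir24-2 in replicate 1 (0.603 to 0.773) and at 0.452 times in replicate 2 (0.400 to 0.510), which is 40.6% and 31.1% of the Mir24 counts. These ratios rest on 1072 and 1253 counts in all, and reads wholly inside the 28 nt that the hairpins share are not among them. The summed clusters differed 1.52-fold (1.51 to 1.53) and 1.49-fold (1.480 to 1.499), chromosome 13 over chromosome 8, and follow the Mir23 genes.

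Within the clusters, Mir23 exceeded Mir27 by a factor that differed between the chromosomes. On chromosome 13 Mir23b exceeded Mir27b 6.21-fold in replicate 1 (6.13 to 6.29) and 7.35-fold in replicate 2 (7.26 to 7.44). On chromosome 8 Mir23a exceeded Mir27a 22.1-fold (21.5 to 22.7) and 33.6-fold (32.6 to 34.6). The log2 ratio of Mir23 over Mir27 was thus lower on chromosome 13 than on chromosome 8 by a difference of -1.83 in replicate 1 and -2.19 in replicate 2 (mean -2.01 ± 0.26, SD, n = 2).

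In uniquely placed reads the step to Mir24 went the other way. Mir27b exceeded Mir24-1 55.8-fold (50.7 to 61.4) and 74.3-fold (67.2 to 82.3), while Mir27a exceeded Mir24-2 7.78-fold (7.16 to 8.46) and 5.42-fold (5.04 to 5.83). Mir23b exceeded Mir24-1 346-fold and 546-fold, and Mir23a exceeded Mir24-2 172-fold and 182-fold. Mir23 made up 85.9% and 87.9% of the chromosome 13 cluster and 95.1% and 96.6% of the chromosome 8 cluster, Mir27 13.8% and 12.0% of the chromosome 13 cluster and 4.30% and 2.88% of the chromosome 8 cluster. Full-length reads of miR-24-3p are in none of these counts, so the ratios over Mir24-1 and Mir24-2 compare uniquely placed reads and not mature miRNA levels. Mates of 1 cluster have different sequences, and differences in ligation or in other reads shared between paralogs were not tested.

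**Figure D3:**
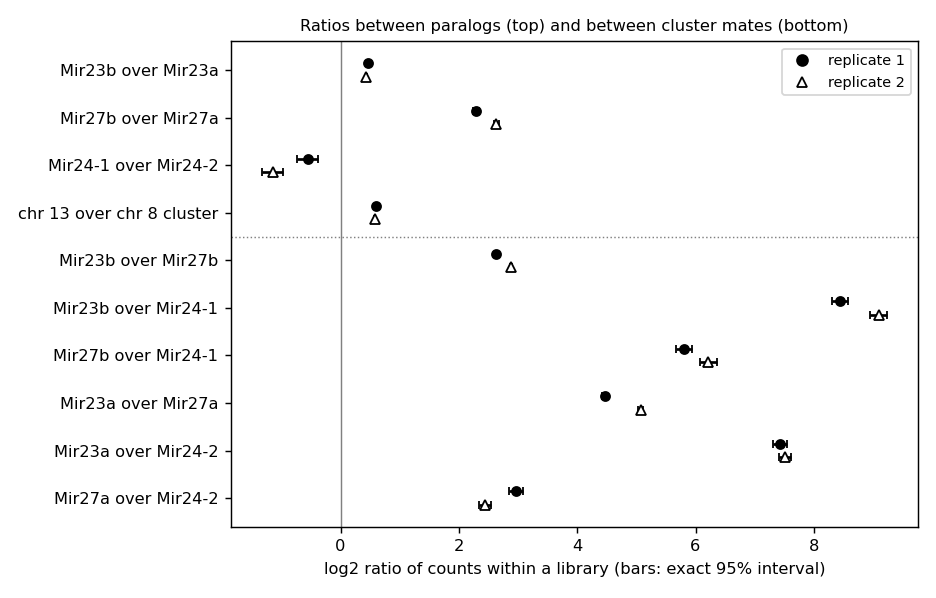
Log2 ratios of counts within each library, with exact 95% intervals, for paralogs (above the dotted line) and for cluster mates (below it), in replicate 1 (circles) and replicate 2 (triangles). The Mir23b over Mir23a ratio is nearly the same in both hearts (0.46 and 0.44), and of the ratios shown Mir24-1 over Mir24-2 alone lies below 0.

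Between the hearts, the Mir23 genes moved together and the Mir27 genes in opposite directions. After trimmed mean of M values (TMM) scaling, the log2 ratio of replicate 1 over replicate 2 was -0.46 for Mir23b (exact 95% interval -0.47 to -0.45) and -0.48 for Mir23a (-0.49 to -0.47). It was -0.22 for Mir27b (-0.24 to -0.19) and 0.12 for Mir27a (0.06 to 0.18). For the low genes it was 0.20 for Mir24-1 (-0.004 to 0.40), -0.40 for Mir24-2 (-0.55 to -0.25) and 0.50 for Mir3074-1 (0.06 to 0.95). The intervals take the TMM factors as given, and other scalings moved the ratios of the Mir23 and Mir27 genes past them. None of the 7 members was 1.5-fold or more apart between the libraries, against 67 of the 266 genes that reached 100 counts in sum (25.2%). The members' median absolute log2 ratio was 0.40, beside 0.33 over those 266 genes. Of the members, 4 were below 0 and 3 above, with a median of -0.22, against a median of 0.01 over all genes tested.

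Markers of cell types also differed between these libraries. The endothelial gene Mir126a had a log2 ratio of -0.74, the sign of the Mir23 genes, while Mir221 (0.89) and Mir222 (1.46) of the same list had the other sign. The 3 erythroid genes were below 0, with Mir144 at -2.64, Mir451a at -1.25 and Mir486 at -0.15. Of the cardiac muscle genes 5 were above 0 and 2 below, from -0.37 for Mir1a-2 to 1.498 for Mir133a-1, with Mir208a at 1.05, Mir499 at 0.33 and Mir208b at 0.19. Of the fibroblast genes 3 were above 0 and 2 below, from -0.46 for Mir199b to 3.04 for Mir199a-1, which had 8 counts and 1 count, with Mir21a at 1.60 and Mir214 at -0.22. The smooth muscle genes Mir143 and Mir145a stood at 0.54 and 0.02, and the 5 white blood cell genes between -0.33 and 0.06. The part of cell makeup in the members' differences was not tested, and in whole tissue fewer cells of a type and less miRNA per cell cannot be told apart.

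**Figure D4:**
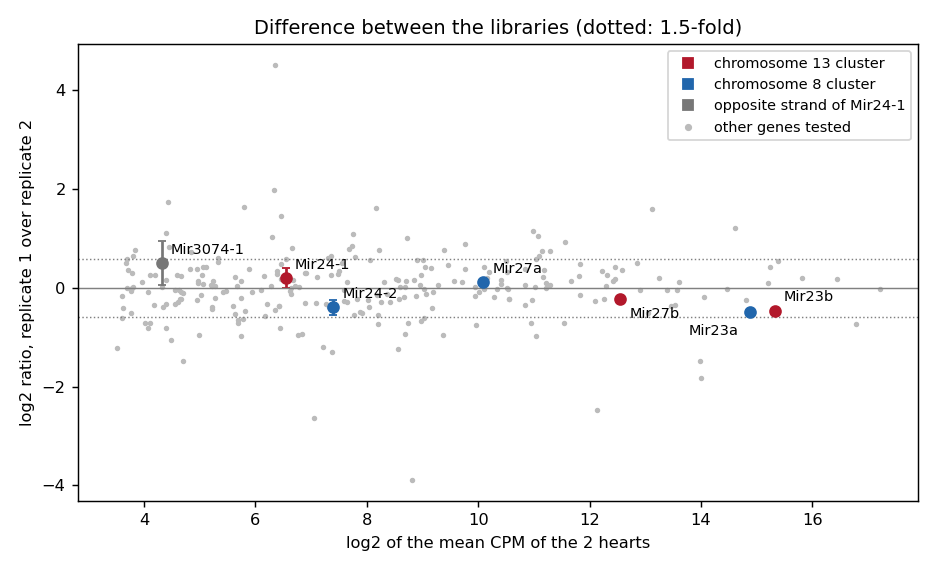
Log2 ratio of replicate 1 over replicate 2 (TMM) against the log2 of the mean CPM, for the 7 members with exact 95% intervals and for the other genes that reached 100 counts in sum. All 7 members lie between the dotted lines at 1.5-fold, with Mir23a lowest at -0.48 and Mir3074-1 highest at 0.50.

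Genes that lie next to each other give a measure of how alike cluster mates are. Over 89 pairs of neighbouring miRNA genes on 1 strand, within 10 kb and each with a summed count of 100 or more, mates differed in level by a median absolute log2 ratio of 2.31, and in their log2 library ratio by a median of 0.48. The 4 member pairs had medians of 3.77 and 0.47. Mir27b and Mir24-1 had the widest gap in level of the 4, at 6.004, which ranked 5 of the 89 pairs. Mir23a and Mir27a followed at 4.78 (rank 10), and Mir23b with Mir27b (2.77) and Mir27a with Mir24-2 (2.69) lay near the median. The counts of the Mir24 genes leave out full-length miR-24-3p, so the gaps of pairs with Mir24-1 or Mir24-2 are not gaps in mature miRNA level. Shared arms in the other pairs were not examined, and the ranks describe uniquely placed reads only. Of the 4 member pairs, all of adjacent genes, Mir23b and Mir27b were the closest in library ratio, 0.24 apart, and Mir23a and Mir27a the farthest, 0.60 apart. Pairs of a cluster share genes and are not independent.

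**Figure D5:**
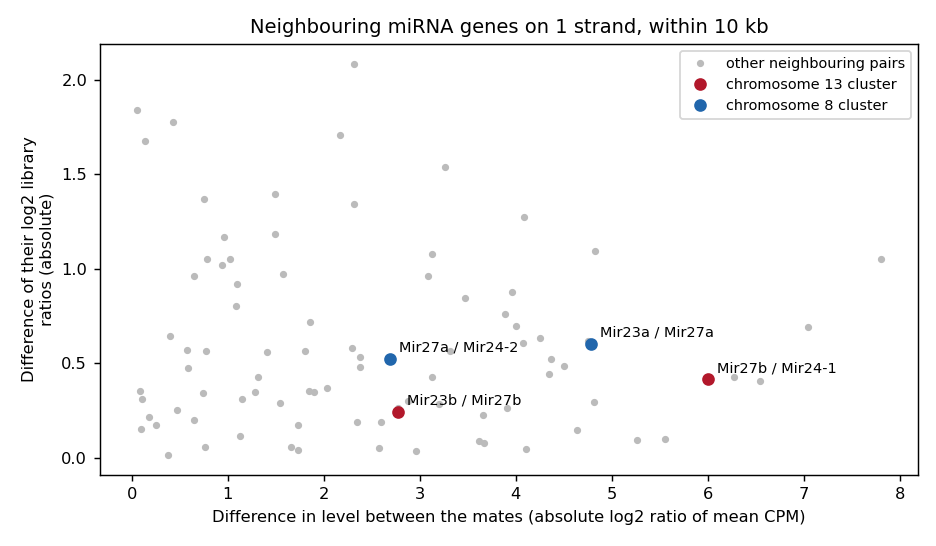
Difference in level between neighbouring miRNA genes (absolute log2 ratio of mean CPM, x axis) and difference of their log2 library ratios (absolute, y axis), with a point per pair. The 4 pairs of the clusters lie between 0.24 and 0.60 on the y axis, within the spread of the other 85 pairs, and Mir27b with Mir24-1 lies far to the right at 6.004.

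The strand columns separate the overlapping genes of the Mir24 loci. The counts here are of uniquely placed reads only, so full-length miR-24-3p and miR-3074-5p are in none of them and the shares of all reads of these loci are not known. Mir3074-1 took 19.0% of the uniquely placed reads of its locus in replicate 1 (102 of 537, exact 95% interval 15.8 to 22.6) and 15.9% in replicate 2 (74 of 464, 12.7 to 19.6). Mir3074-2 took 1 of 638 such reads (0.157%) in replicate 1 and 0 of 863 in replicate 2, where the interval reaches up to 0.427%. Uniquely placed minus-strand reads were thus present on chromosome 13 in both hearts and nearly absent on chromosome 8. Among 22 opposite-strand gene pairs that reached 100 counts in sum, the lesser gene's share of these counts was highest for Mir24-1 and Mir3074-1, at 17.6% over both libraries, ahead of Mir486 and Mir3107 at 4.54%. In 13 of the 22 pairs the lesser gene was at 0 in both hearts.

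Without regard to strand, Mir24-1, Mir24-2 and Mir3074-1 had 0 counts, since reads in overlapping genes are then ambiguous. Mir23b, Mir23a, Mir27b and Mir27a had the same counts with and without strand, and 0 reads on the opposite strand in both hearts.

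With 2 libraries a pattern across samples is only a pair of levels, and the genes nearest to each member were taken by distance in log2(CPM + 1) over them. Mirlet7b was nearest to Mir23b (distance 0.42) and Mir30d to Mir23a (0.19). Mir130a was nearest to Mir27b (0.31). Mir106b (0.10) and the myosin-hosted Mir208b (0.10) were nearest to Mir27a. Mir708 was nearest to Mir24-1 (0.03), Mir128-1 to Mir24-2 (0.03) and Mir141 to Mir3074-1 (0.07).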

How the data were processed

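MicroRNA-seq of 2 hearts (1 group, biological replicates 1 and 2 per the labels) was analysed from 1 table per library. Per the file headers, the authors deposited raw read counts per miRNA gene on mm10 with GENCODE M21; which aligner or counter made them is not given in the sources used here, and versions likewise. Each table had 3 count columns (no strand, gene strand, opposite strand) for 2202 genes and 4 category rows, which were left out of library sizes; genes took 39.5% and 44.9% of the reads. The gene strand was the main column. IDs were matched to M21 names. CPM used the total on named genes. Library ratios used edgeR 4.0.16 TMM factors (R 4.3.3). Intervals of shares and ratios are exact (Clopper-Pearson, from the binomial split of 2 counts), computed with scipy 1.17.1. On simulated counts for the 266 genes compared between libraries, 95.9% of intervals held the true ratio, and 100% of 4-fold and 98.9% of 2-fold changes passed 1.5-fold; these counts held counting noise only. Alternatives were the column without strand, all reads as denominator, leaving out the most abundant gene, DESeq2 1.42.0 size factors, total counts, other minimums and leaving out each replicate. The DESeq2 size factors came out at 1 in both libraries, so library ratios under them are ratios of raw counts. Besides the members, the named genes were those of the marker lists, opposite-strand partners and the nearest genes by level. Mir486, Mir3107, 2010111I01Rik, Fancc and Gm26532 were named after their values or positions were seen. Mature sequences are from RefSeq. The members and lists were chosen with earlier results of these data known. Reads were mapped to the C57BL/6J reference, and the effect of CAST/EiJ alleles was not tested.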

Additional observations from a re-analysis of the deposited data

Results flagged for a closer look

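Reads placed at more than 1 position lie outside the gene counts and far above a limit of 3 counts: 4193785 in replicate 1 and 3872896 in replicate 2, or 46.8% and 43.2% of the mapped reads. They can hold reads of miR-24-3p and miR-3074-5p, which are the same at both loci, and the files do not say how many. Reads outside features numbered 507613 in replicate 1 and 499225 in replicate 2.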

How the results depend on the processing

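With 1 group, no paired fit was possible. Of 117 values under alternatives, 40 leave out a replicate, which with 2 hearts cannot move a mean by more than 1 SD. Of the other 77, 42 stayed within the replicate spread, the counting interval or, for counts of genes, 1.5 times; 35 moved, and no ratio changed sign. Without regard to strand the shares were 6.70% (chromosome 13 cluster), 4.44% (chromosome 8 cluster) and 11.1% (all 7 members), 4 members were detected in place of 7, and ratios with Mir24-1 or Mir24-2 had no value, since overlapping genes lose their reads. Over all reads the shares were 2.00%, 1.33% and 3.33%. Without the most abundant gene the chromosome 13 share was 5.54%. Genes 1.5-fold or more apart numbered 117 of 375 at a summed count of 20 or more and 39 of 156 at 1000 or more, against 67 of 266. As a share of the genes compared they were thus more frequent at 20 or more and nearly unchanged at 1000 or more. Of the members compared, 0 were that far apart at either minimum. Mir24-1 and Mir3074-1 did not reach a summed count of 1000 and were not compared there. The log2 library ratios of Mir23b, Mir23a and Mir27b moved past their intervals with the scaling. With total counts they were -0.39, -0.42 and -0.15, and with DESeq2 size factors -0.50, -0.52 and -0.26. That of Mir27a moved to 0.19 with total counts and stayed within its interval, at 0.08, with DESeq2 size factors. Library ratios could not be had without a replicate. Mir24-1, Mir24-2 and Mir3074-1 had the fewest counts and the widest intervals of the members, and their counts leave out full-length reads of shared arms.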
